A study of Caenorhabditis elegans with 16 samples.

Results

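Of the 46904 genes in the count table, 58 had levels at least 4 times the uninduced level in *pals-22(jy3)* mutants as well as in *pals-25(jy111)* mutants and within a factor of 2 of each other, and these 58 genes are described here across all 4 genotypes. They were chosen from their own levels. Levels are given as CPM, counts scaled to a common library total, and the mean of the 4 libraries of a genotype plus 0.1 CPM was used for folds and ratios, except for lower bounds against a floor of 3 counts and where edgeR is named. A gene was a member if its mean was at least 1 CPM in both mutants, if both of these values were at least 4 times those in wild-type (WT) animals and in animals mutant for both genes, *pals-22(jy3) pals-25(jy9)*, and if the ratio of *pals-22(jy3)* to *pals-25(jy111)* lay between 0.5 and 2. Genes of the *pals*, *chil*, *fbxa*, *fbxb*, *fbxc*, *math*, *bath* and *clec* families were left out by symbol, which removed 16 genes that met the other conditions. Without the ratio window, 96 genes outside these families met the rule, of which 34 had a ratio above 2 and 4 had a ratio below 0.5.

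PALS-22 and PALS-25 are antagonistic paralogs encoded in 1 operon. PALS-22 represses and PALS-25 activates expression of genes that wild-type animals induce upon infection. One such program is the intracellular pathogen response (IPR), induced by microsporidia and by the Orsay virus in the intestine, and another is the oomycete recognition response (ORR), induced in the epidermis. Loss of PALS-22 turns on both programs when PALS-25 is intact, and a PALS-25 protein with a shortened C terminus turns them on while PALS-22 is intact.

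The study sequenced mRNA from whole *C. elegans* at the L4 larval stage, with 4 libraries per genotype and no infection. WT animals were the N2 strain. The *pals-22(jy3)* mutants carry a loss-of-function allele of the repressor, *pals-22(jy3) pals-25(jy9)* animals, called double mutants here, carry loss-of-function alleles of both genes, and the *pals-25(jy111)* mutants carry wild-type *pals-22* with a premature stop codon in *pals-25*. All animals were grown on *E. coli* OP50-1 at 20 °C, for 44 h except for *pals-22(jy3)* mutants, which were grown for 48 h. The growth time and the *pals-22(jy3)* genotype therefore cannot be told apart. The *jy111* allele came from 1 edited line, made in animals with a *pals-5p*::*gfp* transgene that was later crossed out. In whole animals, fewer cells of a type and less RNA per cell cannot be told apart. Sample titles call the replicates biological, and p-values measure the spread between these libraries.

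The edit that defines the *pals-25(jy111)* genotype is shown because every level given for that genotype rests on it. The 23-base windows below are written 5′ to 3′, and capitals mark the bases at which the repair template differs from the crRNA target on chromosome III.
pals-25 crRNA target: cCaaaaagatcaTgtCagtcagg
pals-25 repair template, same window: cTaaaaagatcaCgtAagtcagg
Counted from 1 at the 5′ end of the window, the differences were C2T, T13C and C16A. C2T turns a glutamine codon into the stop codon, and the other changes leave the protein sequence as it is.

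The libraries held 14028579 to 34151410 counted reads, with the lowest total in replicate 1 of WT. Levels of the mutated genes do not check the alleles, which are small sequence changes, and mean *pals-22* levels were 21.9 CPM in *pals-22(jy3)* mutants, against 4.12 CPM in WT, 6.24 CPM in double mutants and 9.61 CPM in *pals-25(jy111)* mutants. Markers of epidermis, intestine, muscle, neurons and germline were detected in all genotypes, as whole animals require. The summed level of 6 vitellogenin genes, which the intestine makes as animals become adult, was 1938 to 3585 CPM in *pals-22(jy3)* mutants and 731 to 1239 CPM in *pals-25(jy111)* mutants. Sums of 31 sperm genes and of 3 germline genes went the other way, with overlapping libraries. Their means were 535 and 295 CPM in *pals-22(jy3)* mutants and 768 and 518 CPM in *pals-25(jy111)* mutants. The part of these sums in the ratios between the activated genotypes was not tested. Replicate 1 of *pals-22(jy3)* mutants had a chi-square per gene of 74.3 to 167 against the other libraries of its genotype, where those differed from each other by 20.6 to 48.4. In *pals-25(jy111)* mutants, replicates 1 and 4 differed by 141. Replicate 4 of the double mutants also stood apart from the other libraries of its genotype. It differed from each of them by 117.0 to 190, where the others differed from each other by 23.5 to 61.2. Its summed level of 5 molting genes was 992 CPM, compared to 2599 to 3430 CPM in the other double mutant libraries. The vitellogenin sum was 75.2 to 1090 CPM in double mutants and 817 to 1475 CPM in WT animals, and the part of these differences in the comparison of double mutants to WT was not tested.

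Most members were at low levels in animals without activation, and 41 had a WT mean under 0.5 CPM, while 7 had a WT mean of at least 2 CPM. Their median level was 0.115 CPM in WT animals and 0.121 CPM in double mutants, and 6.30 CPM in *pals-22(jy3)* mutants and 4.89 CPM in *pals-25(jy111)* mutants. No read was counted for 9 members in WT animals, for 10 members in double mutants and for 6 members in both. The summed level of all 58 members was 56.2 to 68.2 CPM in the WT libraries, 67.0 to 73.1 CPM in the double mutant libraries, 2584 to 2844 CPM in the *pals-22(jy3)* libraries and 1589 to 1972 CPM in the *pals-25(jy111)* libraries. A single gene, *vsra-1*, made up 47.5% of this sum in *pals-22(jy3)* mutants and 35.9% in *pals-25(jy111)* mutants. Without it the sums were 1282 to 1579 CPM and 996 to 1306 CPM, so the *pals-22(jy3)* and *pals-25(jy111)* libraries then overlapped.

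**Figure D1:**
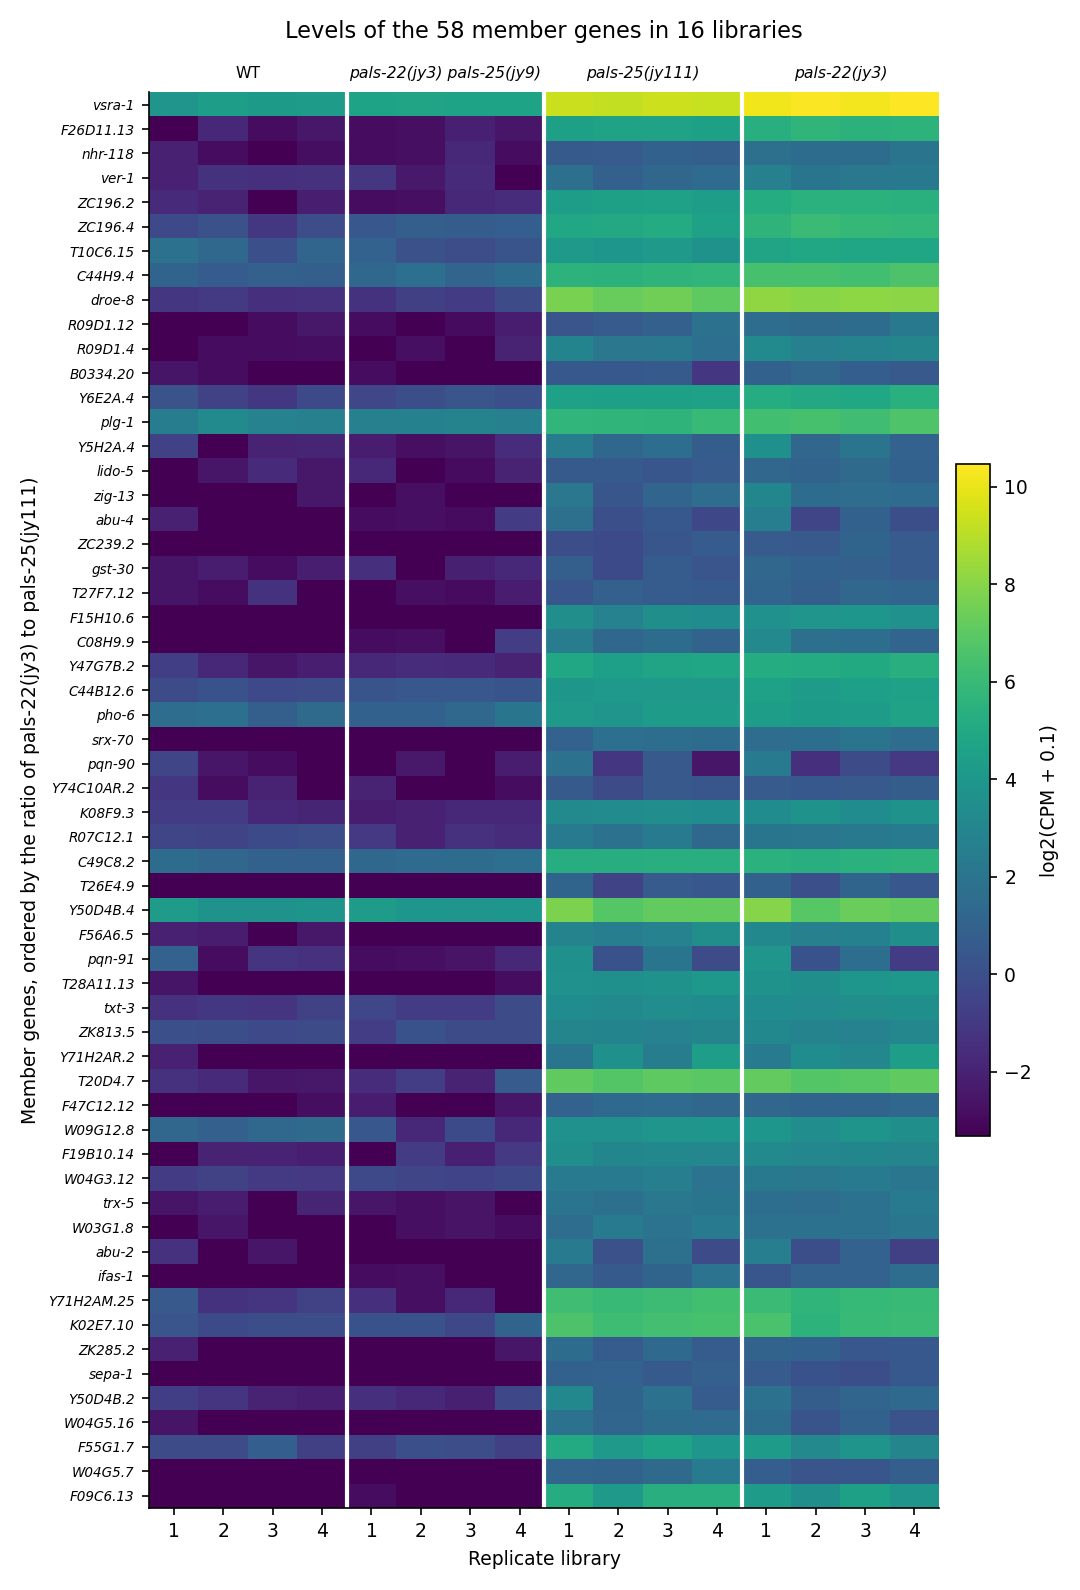
Level of each of the 58 members (rows, ordered by the ratio of *pals-22(jy3)* to *pals-25(jy111)*) in each of the 16 libraries (columns, 4 per genotype), as log2(CPM + 0.1) on a color scale. The WT and double mutant libraries are dark for nearly all members, and *vsra-1* is the brightest gene, with 593 to 1412 CPM in the activated libraries.

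The fold of a member, taken as the lower of the 2 activated means over the higher of the WT and double mutant means, had a median of 14.2. It was at least 10 for 39 members, at least 50 for 11 members and under 8 for 16 members. These folds were set in part by the rule and are a description without a test. For 56 of the 58 members all 8 activated libraries lay above all 8 WT and double mutant libraries, which held for 2.66% of the 13221 genes with at least 1 CPM in both activated genotypes. Since the rule used these contrasts, nothing is read from the difference. The exceptions were *pqn-90* and *pqn-91*.

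For both members linked to small RNA pathways, every *pals-22(jy3)* library exceeded every *pals-25(jy111)* library. *vsra-1* (I:9673664-9678557, minus strand, WBcel235) encodes an Argonaute, a protein that binds small RNAs and uses them to recognize target RNAs. Its level was 14.4, 20.5, 18.1 and 19.3 CPM in the WT libraries, and 25.7, 25.98, 25.9 and 25.1 CPM in the double mutant libraries. In the *pals-22(jy3)* libraries it was 1135, 1355, 1214 and 1412 CPM, and in the *pals-25(jy111)* libraries 666, 593, 671 and 630 CPM. The 4 genotypes did not overlap, and the ratio of 1.997 placed *vsra-1* at the upper edge of the window, so that it no longer met the rule without replicate 1 or replicate 3 of either activated genotype. *C44H9.4* (V:12835688-12839854) encodes an ortholog of the human RNA helicase MOV10L1. It was at 85.8, 87.0, 79.4 and 96.1 CPM in *pals-22(jy3)* mutants and 48.6, 46.3, 49.1 and 53.3 CPM in *pals-25(jy111)* mutants. Every *pals-22(jy3)* library was thus above every *pals-25(jy111)* library, while WT animals held 1.503 to 2.07 CPM and double mutants 2.17 to 3.20 CPM.

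A group of 3 cathepsin O-like genes, whose products are predicted cysteine proteases, had ratios between 0.787 and 1.04 and folds between 51.7 and 83.1. Each has 299 codons, and all 3 are on the ORR list. WormCat places *K02E7.10* among aspartate cathepsins, although its description predicts a cysteine-type peptidase as for the other 2 genes. *K02E7.10* (II:1065365-1067007) was at 89.6, 48.4, 63.2 and 66.8 CPM in *pals-22(jy3)* mutants and at 99.4, 71.6, 81.4 and 88.1 CPM in *pals-25(jy111)* mutants. *Y71H2AM.25* (III:2802465-2803681) was at 68.0, 52.4, 60.5 and 63.5 CPM and at 76.3, 65.3, 70.7 and 77.3 CPM in the same order. For both genes the libraries of the activated genotypes overlapped, although each *pals-22(jy3)* library was below the *pals-25(jy111)* library of the same replicate number. No WT or double mutant library exceeded 2.08 CPM. *Y71H2AR.2* (III:2839120-2840927) was at 5.04, 10.4, 8.14 and 20.4 CPM in *pals-22(jy3)* mutants and at 3.99, 11.96, 5.40 and 21.1 CPM in *pals-25(jy111)* mutants. Its level spread over 4 libraries by more than that of the other cathepsin O-like genes, and the libraries with the same replicate number were close in both genotypes. In the double mutant libraries no read was counted for *Y71H2AR.2*.

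The 3 members with a thioredoxin-like fold, orthologs of human nucleoredoxin-like proteins, also had ratios close to 1. All lie on chromosome V and all are on the ORR list. *T20D4.7* (V:3408902-3409528) was at 143, 109, 118.4 and 135 CPM in *pals-22(jy3)* mutants and at 139, 111.3, 130 and 124 CPM in *pals-25(jy111)* mutants, with means of 126 ± 15.3 and 126 ± 11.6 CPM (SD, n = 4). WT libraries held 0.0751 to 0.285 CPM and double mutant libraries 0.233, 0.464, 0.162 and 1.43 CPM. The fold was 188, and 327 without replicate 4 of the double mutants, which held the highest of these values. *T28A11.13* was at 14.2 ± 2.08 and 13.3 ± 1.91 CPM (SD, n = 4), and *trx-5* at 3.57 ± 0.834 and 3.92 ± 0.489 CPM. The activated libraries overlapped for each of the 3 genes. Divided by the length in the count table, *T20D4.7* was the most abundant member in *pals-25(jy111)* mutants, at 242 CPM per kb against 208 CPM per kb for *vsra-1*. In *pals-22(jy3)* mutants the order was the other way round, at 243 and 415 CPM per kb.

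With 0.1 CPM added to each mean, *droe-8* had the largest fold of the 58 members over all 16 libraries, 267. It lies at V:8726528-8728957 on the plus strand, and WormCat places it among heavy metal response genes. Its level was 0.356, 0.413, 0.263 and 0.297 CPM in WT animals and 0.310, 0.510, 0.453 and 0.810 CPM in double mutants. It was 294, 263, 279 and 269 CPM in *pals-22(jy3)* mutants and 204, 151, 175 and 132 CPM in *pals-25(jy111)* mutants, without overlap. *F26D11.13*, a gene of unknown function that WormCat lists as regulated by multiple stresses, followed the same order at 46.5 ± 4.91 and 23.6 ± 1.06 CPM (SD, n = 4). Its ratio of 1.96 was close to the upper edge.

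Membrane or secreted products made up 9 members, with varied ratios. *Y50D4B.4*, a predicted transmembrane protein, was expressed in WT animals, at 19.03, 13.5, 13.3 and 13.9 CPM. In *pals-22(jy3)* mutants it was at 245, 116, 156 and 140 CPM and in *pals-25(jy111)* mutants at 211, 114, 145 and 141 CPM. The activated libraries overlapped, and replicate 1 was the highest in all 4 genotypes. *C49C8.2*, which has a membrane-spanning domain, was among the least variable members, at 44.5 ± 2.57 CPM in *pals-22(jy3)* mutants and 39.7 ± 1.79 CPM in *pals-25(jy111)* mutants (SD, n = 4). *plg-1*, a gene linked to the copulatory plug, was at 77.7, 86.5, 76.3 and 101 CPM and at 53.1, 52.0, 49.6 and 63.2 CPM in the same order. All *pals-22(jy3)* libraries were higher, and the WT libraries held 5.56 to 9.17 CPM. *Y47G7B.2*, another predicted transmembrane protein, and *C44B12.6*, with predicted cytokine activity, were likewise higher in every *pals-22(jy3)* library, at ratios of 1.37 and 1.33.

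Signaling and transcription genes were expressed at low levels. *ver-1*, a receptor tyrosine kinase related to human VEGF receptors, was at 6.41, 4.01, 4.51 and 4.67 CPM in *pals-22(jy3)* mutants and 3.30, 1.76, 2.25 and 2.73 CPM in *pals-25(jy111)* mutants. The nuclear hormone receptor gene *nhr-118* was at 3.34, 2.81, 2.79 and 3.82 CPM and at 1.37, 1.45, 1.81 and 1.73 CPM. Both genes were higher in every *pals-22(jy3)* library, with ratios of 1.92 and 1.95. *R09D1.12*, a predicted tyrosine kinase, had a ratio of 1.64 with overlapping libraries. *ZK813.5*, a predicted G protein-coupled receptor, stood at 7.66 ± 0.848 and 7.29 ± 0.418 CPM (SD, n = 4), with a ratio of 1.05.

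The remaining annotated members held 1 or a few genes of each kind. *F56A6.5*, which encodes a RING-type zinc finger, was at 8.28 ± 2.43 CPM in *pals-22(jy3)* mutants and 7.76 ± 2.39 CPM in *pals-25(jy111)* mutants (SD, n = 4), and replicate 4 was the highest in both. No read was counted for it in double mutants. *T10C6.15* was at 26.03, 30.5, 27.1 and 26.9 CPM in *pals-22(jy3)* mutants and at 16.7, 14.95, 17.4 and 13.4 CPM in *pals-25(jy111)* mutants, without overlap. The acid phosphatase gene *pho-6* and the glutathione S-transferase gene *gst-30* had ratios of 1.19 and 1.42 with overlapping libraries. *sepa-1*, which encodes an autophagy substrate, had a ratio of 0.690, at 1.15 ± 0.249 and 1.72 ± 0.231 CPM (SD, n = 4). No read of *sepa-1* was counted in any WT or double mutant library.

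At the lower edge of the window, *F09C6.13* (V:16885044-16885490), a 77-codon gene without an assigned function, was at 19.7, 11.4, 23.0 and 13.7 CPM in *pals-22(jy3)* mutants and 36.4, 17.6, 39.4 and 41.4 CPM in *pals-25(jy111)* mutants. Its activated libraries overlapped despite a ratio of 0.504, because replicate 2 was low in *pals-25(jy111)* mutants. No read was counted in WT animals, so with 3 counts over the group as a floor its level was at least 513-fold higher in *pals-22(jy3)* mutants and at least 1021-fold higher in *pals-25(jy111)* mutants. *F55G1.7*, also without an assigned function, was at 19.7, 9.03, 14.2 and 7.56 CPM and at 34.9, 17.5, 25.6 and 14.8 CPM. These libraries overlapped, yet the same-numbered libraries gave ratios of 0.56, 0.52, 0.56 and 0.52. *W04G5.7* was the only member with all *pals-25(jy111)* libraries higher, at 2.13, 2.02, 2.64 and 4.81 CPM against 1.67, 1.15, 1.20 and 1.74 CPM.

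The members that varied most between replicates were the prion-like domain genes *abu-2*, *abu-4*, *pqn-90* and *pqn-91*. *abu* genes were named for their activation when the unfolded protein response is blocked. These were the only 4 members with a coefficient of variation above 75% in both activated genotypes. *pqn-91* was at 14.5, 1.03, 3.07 and 0.424 CPM in *pals-22(jy3)* mutants, at 11.97, 1.01, 4.02 and 0.802 CPM in *pals-25(jy111)* mutants and at 1.92, 0.0376, 0.338 and 0.297 CPM in WT animals. *abu-2* was at 5.86, 0.875, 1.95 and 0.502 CPM in *pals-22(jy3)* mutants and at 5.30, 0.968, 3.27 and 0.802 CPM in *pals-25(jy111)* mutants. Replicate 1 was the highest and replicate 3 the next highest for both genes in both activated genotypes. Across the 61 *abu* and *pqn* genes with a mean of at least 0.5 CPM, replicate 1 held the highest value for 42 in *pals-22(jy3)* mutants, 32 in *pals-25(jy111)* mutants and 35 in WT animals. In double mutants replicate 4 held the highest value for 37 of them and replicate 1 for 15. The summed level of 5 molting genes was lowest in replicate 1 of the same 3 genotypes, at 1680 CPM, 2134 CPM and 1713 CPM. In double mutants it was lowest in replicate 4, at 992 CPM, and highest in replicate 1, at 3430 CPM, and its part in the levels of *abu* and *pqn* genes was not tested. Without replicate 1 of *pals-22(jy3)*, *abu-2*, *pqn-90* and *pqn-91* no longer met the rule, and without replicate 1 of *pals-25(jy111)* neither did *abu-4*, *pqn-90* and *pqn-91*.

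**Figure D2:**
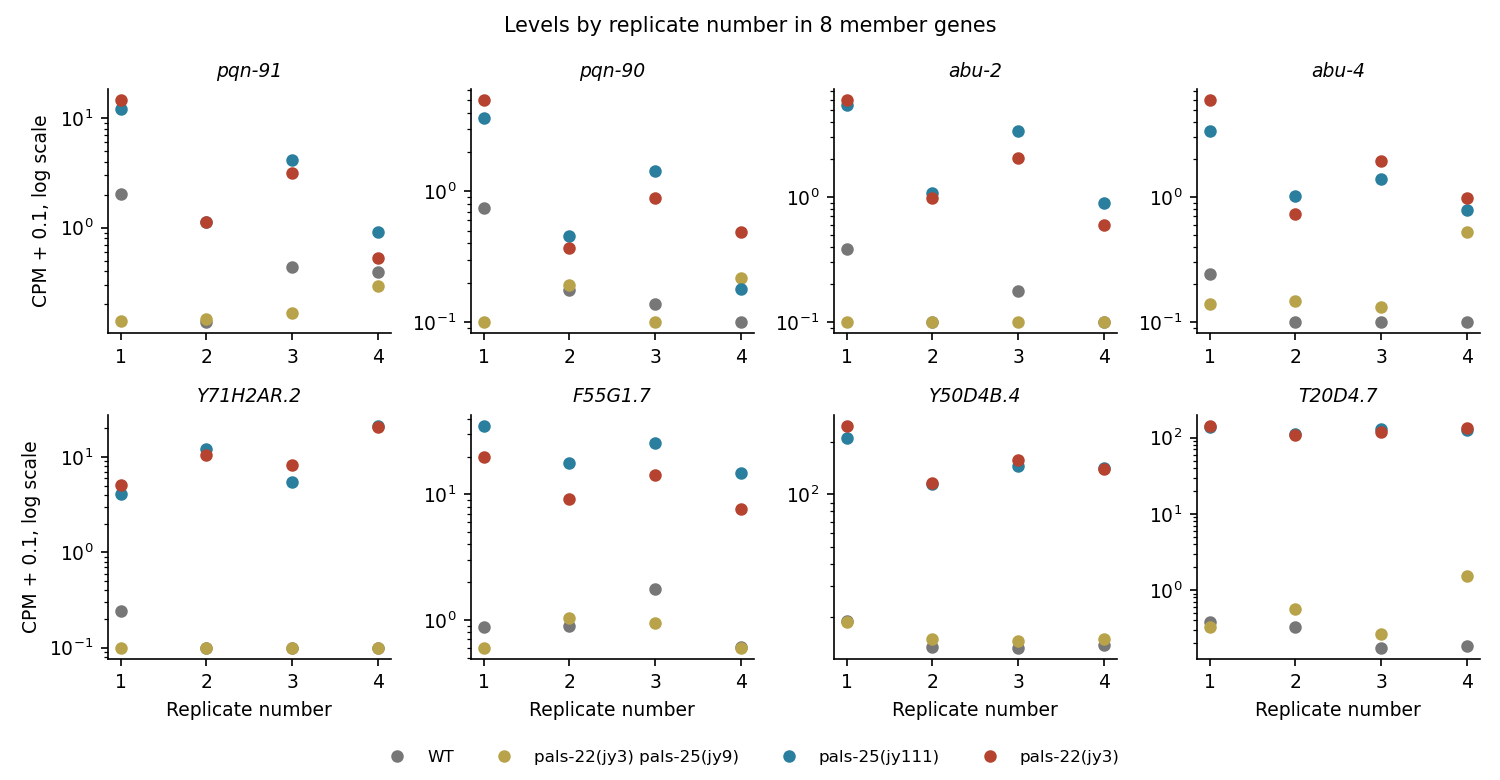
CPM + 0.1 (log scale) of 8 members by replicate number, with 1 point per library and a color per genotype. The upper panels show the 4 *abu* and *pqn* members, whose replicate 1 is highest in both activated genotypes (14.5 and 11.97 CPM for *pqn-91*), and the lower panels show 4 members of other kinds, of which *T20D4.7* lies between 109 and 143 CPM in all 8 activated libraries.

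By annotation, 50 members were protein-coding genes, 6 were pseudogenes and 2 were noncoding RNAs. Pseudogenes made up 3.56% of the 14877 genes with a mean of at least 0.5 CPM over all libraries. *F15H10.6*, the most abundant pseudogene per kb of length, was at 12.4, 14.8, 15.04 and 12.5 CPM in *pals-22(jy3)* mutants and at 10.96, 6.91, 11.4 and 10.47 CPM in *pals-25(jy111)* mutants. All *pals-22(jy3)* libraries were higher, and no read was counted in WT animals or double mutants. With the same floor of 3 counts over the group, the level was at least 414-fold and at least 301-fold higher than in WT animals. The noncoding RNAs *W03G1.8* and *F19B10.14* had ratios of 0.894 and 0.935, and both had overlapping libraries. Among the 50 coding members, 14 had fewer than 200 codons, which held for 21.2% of expressed coding genes, and codon numbers ranged from 48 to 1099.

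Some levels could not be assigned to 1 gene with certainty, since the sources used here do not say how the counting treated strand and reads that match several places. The pseudogene *C08H9.9* shares 1754 bases on the same strand with *chil-1*, which was at 15.5 CPM in *pals-22(jy3)* mutants and 16.3 CPM in *pals-25(jy111)* mutants. *Y6E2A.4* shares 432 bases with *Y6E2A.5*, at 104.7 and 47.8 CPM. On the opposite strand, *C49C8.2* overlaps *C49C8.5* by 782 bases, and the latter was at 188 to 245 CPM in all genotypes. The *abu* and *pqn* genes and the cathepsin O-like genes belong to families of related sequence. For *plg-1*, the length in the count table was 3174 bases, longer than its annotated span at III:8852261-8853006. Its counts may therefore cover sequence outside that span.

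Just inside the 4-fold threshold were *pqn-90*, *R07C12.1* and *Y74C10AR.2*, with folds of 4.97, 5.08 and 5.41, and just outside were *F58E2.3*, *B0284.3* and *mfsd-12*, with 3.57, 3.34 and 3.17. Inside the upper edge of the ratio were *vsra-1*, *F26D11.13* and *nhr-118*, and outside it *C06E4.8*, *Y6E2A.5* and *F13A2.6*, at 2.14, 2.19 and 2.20. Inside the lower edge were *F09C6.13*, *W04G5.7* and *F55G1.7*, at 0.504, 0.512 and 0.546, and outside it *ifas-2*, *Y70C5C.1* and *F09C6.12*, at 0.497, 0.489 and 0.479. The lowest activated means inside the 1 CPM minimum were those of *B0334.20*, *ZC239.2* and *sepa-1*, at 1.07, 1.08 and 1.15 CPM, and the nearest below it were those of *F09C6.3*, *vps-32.2* and *W04G5.8*, at 0.996, 0.958 and 0.925 CPM. When each library was left out in turn, 17 members fell outside the rule at least once, among them *W04G5.7* in 5 cases, *F09C6.13* and *nhr-118* in 3 and *ver-1* and *F55G1.7* in 2.

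Responses in the 2 activated genotypes were similar by the rule but not equal gene by gene. The ratio of *pals-22(jy3)* to *pals-25(jy111)* had a median of 1.16, was above 1 for 41 members and lay between 0.8 and its inverse for 25 members. It exceeded 1.5 for 17 members and fell under 0.67 for 5. The libraries of these genotypes overlapped for 42 members, while all *pals-22(jy3)* libraries were higher for 15 members and all *pals-25(jy111)* libraries for 1 member. Among the 13221 genes with at least 1 CPM in both, 17.4% had all *pals-22(jy3)* libraries higher and 6.32% had them all lower. As the ratio window was part of the rule, these counts are a description. Under TMM scaling the same counts were 15 and 3. The shares of all genes under that scaling are not given here, so nothing is read from the change.

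**Figure D3:**
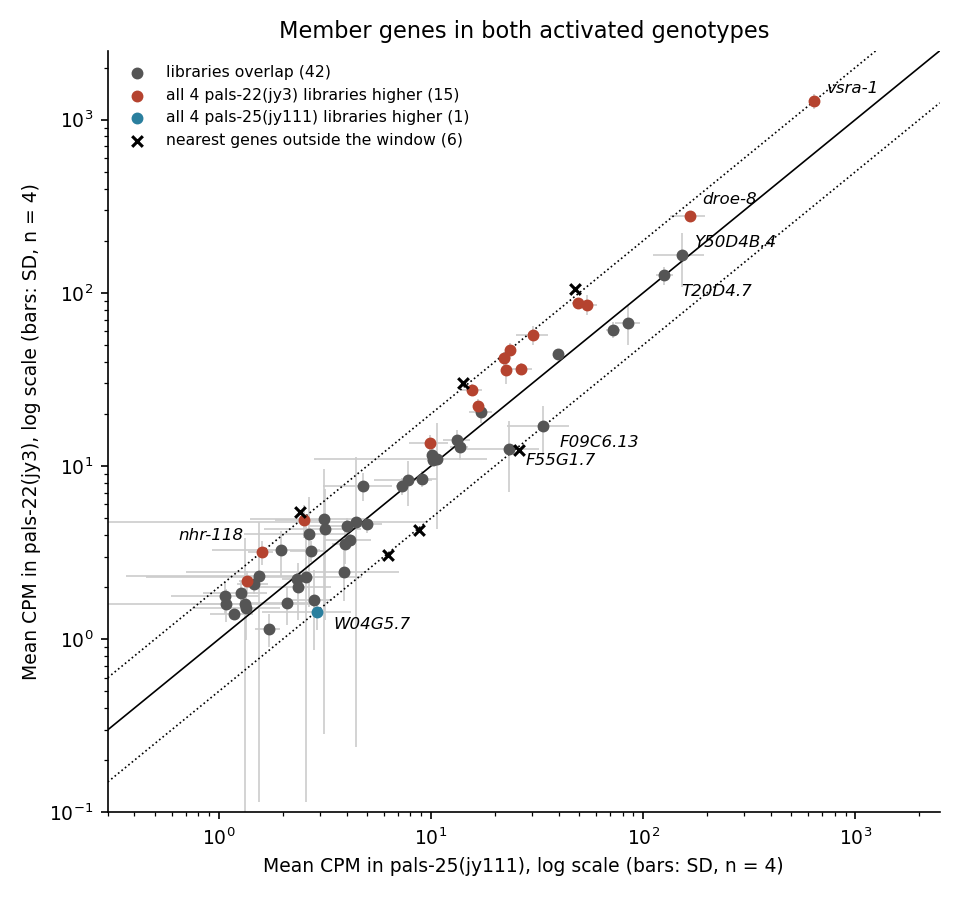
Mean CPM of each member in *pals-22(jy3)* against *pals-25(jy111)* mutants, both on log scales with SD bars (n = 4, lower ends stopped above 0), colored by whether the 4 libraries of each genotype overlap. The solid line marks a ratio of 1, the dotted lines 0.5 and 2, and crosses mark the nearest 6 genes outside the window. Of the 58 members, 42 overlap and 15 lie with all *pals-22(jy3)* libraries higher.

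Libraries with the same replicate number moved together in these genotypes. Of the 58 members, 32 had their highest library at the same number in both, which held for 60.5% of the 13221 genes with at least 1 CPM in both. Compared pair by pair, *pals-22(jy3)* was higher in 4 of 4 pairs for 24 members and in 0 of 4 pairs for 7 members, where these shares were 35.8% and 29% of the same genes. As the ratio window was part of the rule, nothing is read from these counts. *Y71H2AM.25* was lower in *pals-22(jy3)* in all pairs, with ratios of 0.89, 0.80, 0.86 and 0.82, and so was *K02E7.10*, at 0.90, 0.68, 0.78 and 0.76. *C49C8.2* was higher in all pairs, with ratios of 1.17, 1.09, 1.07 and 1.16. *R09D1.12*, *pho-6* and *gst-30*, whose activated libraries overlapped, were also higher in *pals-22(jy3)* in all pairs.

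Membership of the members on earlier lists depended on the families left out by symbol, since *pals* and other family genes on these lists could not be members. Of the 58 members, 3 (5.17%) were on the list of 80 IPR genes, which held 0.524% of expressed genes, namely *droe-8*, *F26D11.13* and *T10C6.15*, and all 3 were also on the ORR list. The members were 3.75% of the IPR list. The longer list of ORR genes, with 1.16% of expressed genes, held 27 members (46.6%), which were 13.1% of that list, and 31 members were on neither list. Of the 34 responders with a ratio above 2, 16 (47.1%) were on the IPR list and 19 (55.9%) on the ORR list. Both lists came from earlier work on the same pathway and were not tested here. Members on the ORR list had a median fold of 24.8 and a median ratio of 1.08, and the other members had 10.05 and 1.18. Median levels in *pals-25(jy111)* mutants were 13.3 CPM for members on the ORR list and 3.14 CPM for the others. The order was the same in *pals-22(jy3)* mutants. The rule selected on the fold, and the part of these levels in the difference between folds was not tested. Nearly all members, 57 of 58 (98.3%), were on the list of genes raised in *pals-25(icb98)* mutants, an independently isolated strain with the same protein change that another laboratory sequenced. They made up 11.4% of that list, which held 2.35% of the expressed genes and 33 of the 34 responders with a ratio above 2. The exception was the noncoding RNA *F19B10.14*. The rule required a raised level in *pals-25(jy111)* mutants, which carry the same protein change, so nothing is read from this overlap.

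Chromosome V held 22 members (37.9%), compared to 19.9% of expressed genes. The other members were on chromosomes I (6), II (11), III (5), IV (10) and X (4), and of the 34 responders with a ratio above 2, 21 were on V and 0 on X. There were 9 places at which members lay within 20 kb of each other, which took in 19 members. No such count was made for other genes, so this number is a description only. At V:8726528-8742311, *droe-8*, *ZC196.4* and *ZC196.2*, the last an ortholog of human VAP proteins, lay on the plus strand with ratios of 1.67, 1.89 and 1.89. Genes between and beside them had higher ratios, at 2.22 for *ZC196.5*, 20.7 for *ZC196.3*, 2.99 for *ZC196.1* and 3.17 for *B0507.6*. *ZC196.3* was at 31.1 CPM in *pals-22(jy3)* mutants and only 1.41 CPM in *pals-25(jy111)* mutants, although the members on either side of it were within a ratio of 2. The pseudogene *R09D1.4* and the kinase gene *R09D1.12* flank the chitinase-like gene *chil-18*, left out by its symbol, which was at 27.5 and 14.4 CPM. *zig-13*, an immunoglobulin-domain gene, and *ver-1* were neighbors at III:154389-163542, with ratios of 1.52 and 1.92.

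**Figure D4:**
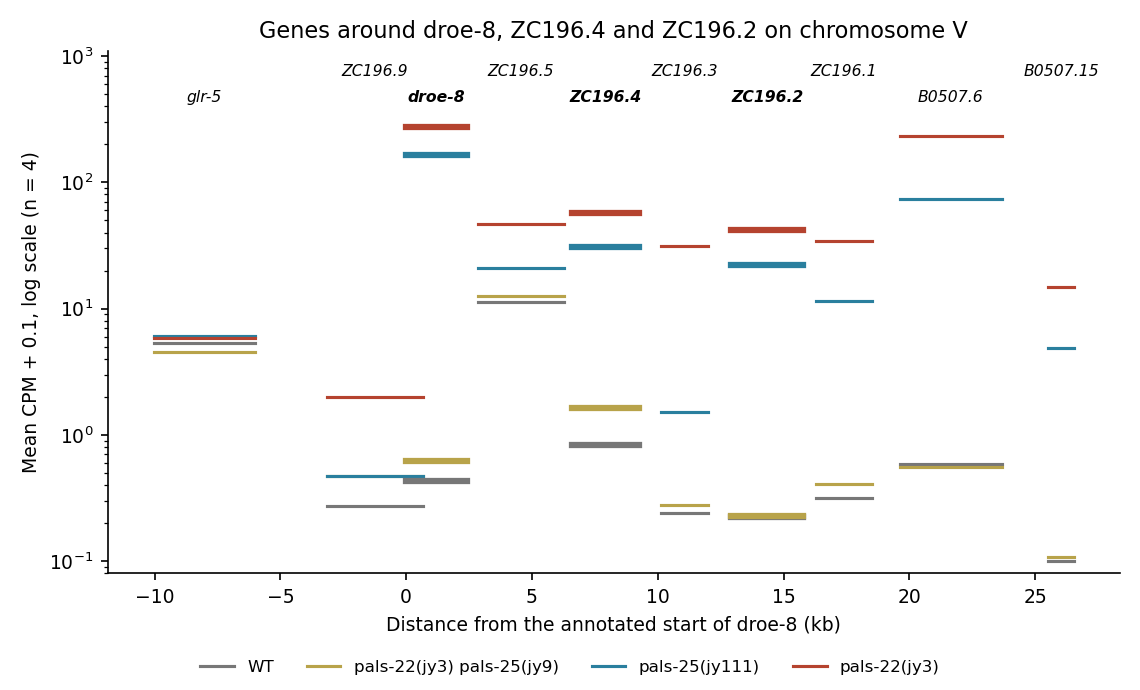
Mean CPM + 0.1 (log scale, n = 4) of annotated genes around *droe-8* against distance from its annotated start in kb. Each bar spans a gene, colors are genotypes, and members have thick bars and bold names. *droe-8*, *ZC196.4* and *ZC196.2* have *pals-25(jy111)* bars close under the *pals-22(jy3)* bars, while *ZC196.3* between them is at 31.1 and 1.41 CPM.

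Members were also compared between *pals-22(jy3) pals-25(jy9)* mutants and WT animals. The rule required the activated means to be at least 4 times both of these means, so a fall from the activated level was fixed by selection. It did not use the difference between double mutants and WT animals. Still, a gene well above WT in double mutants, or well above double mutants in WT, was less able to be a member. The counts are read with these limits. With genes kept at a minimum of 0.5 CPM in 4 or more of these 8 libraries, 16 members could be tested among 14551 genes. Tested in edgeR (quasi-likelihood, Benjamini-Hochberg adjusted over all genes), 0 of the 16 were higher and 1 was lower, where 2.61% of all genes were higher and 6.07% lower, or 8.68% in either direction. At an unadjusted p under 0.05 by the same edgeR test, 4 were higher and 3 lower, where 28.1% of all genes passed in either direction. Those 16 members passed through their level in WT animals or double mutants and do not stand for all 58. The lower gene was *R07C12.1*, which WormCat lists as regulated by multiple stresses. It was at 0.642, 0.601, 0.751 and 0.847 CPM in WT animals and 0.388, 0.139, 0.291 and 0.231 CPM in double mutants, and these libraries did not overlap. It fell by 1.46 on the log2 scale (SE 0.301, adjusted p = 0.0275 by edgeR). The call was lost without replicate 3 of WT (adjusted p = 0.0886), replicate 4 of WT (0.0866), replicate 2 of the double mutants (0.0577) or replicate 3 of the double mutants (0.0574), each by the same edgeR test. Without replicate 4 of the double mutants 1 member was called, and *R07C12.1* was at -1.39 on the log2 scale (adjusted p = 0.0395 by edgeR). *R07C12.1* shares 1622 bases on the same strand with *K08D10.10*, for which 0.0390 CPM were counted in WT animals and 0.0116 CPM in double mutants.

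Other tested members lay close to the threshold. *vsra-1* was 0.44 higher in double mutants on the log2 scale (SE 0.118, adjusted p = 0.0541 by edgeR), with every double mutant library above every WT library. *ZC196.4* was at 0.713, 0.977, 0.376 and 0.847 CPM in WT animals and 1.24, 1.72, 1.59 and 1.62 CPM in double mutants, a log2 difference of 1.02 (SE 0.286, adjusted p = 0.0619 by edgeR). *W09G12.8*, which encodes a predicted galactose-binding-like domain, was at 2.28, 1.803, 2.40 and 2.58 CPM in WT animals and 1.24, 0.186, 0.744 and 0.193 CPM in double mutants, a log2 difference of -1.97 (SE 0.529, adjusted p = 0.0557 by edgeR). For none of these 3 genes did WT and double mutant libraries overlap. By limma-voom *vsra-1* was called higher and *W09G12.8* lower, and by DESeq2 *ZC196.4* was called higher as well. When genes were kept by their counts over all 16 libraries, 52 members could be tested among 15292 genes, and again 0 were higher and 1, *R07C12.1*, was lower (adjusted p = 0.0315 by edgeR), against 2.35% and 5.59% of all genes, or 7.94% in either direction. At an unadjusted p under 0.05 by the same edgeR test, 4 were higher and 6 lower, where 27.5% of all genes passed in either direction. The members added by this filter passed only through the activated libraries and had few reads in WT animals and double mutants, and nothing is read from their count.

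**Figure D5:**
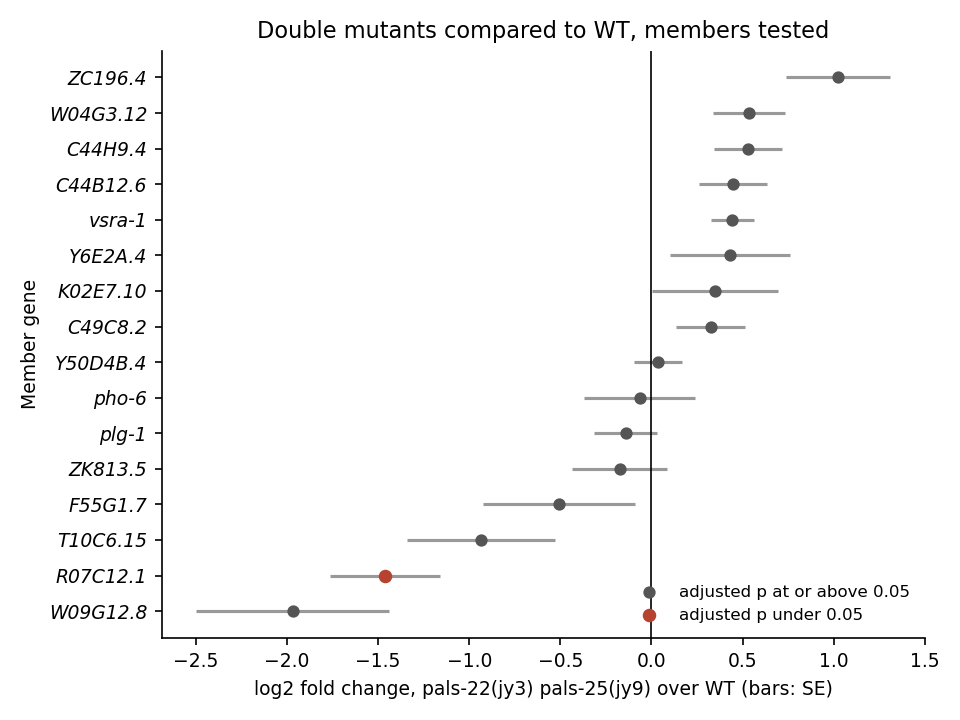
Log2 fold change of double mutants over WT animals for the 16 members that passed the minimum of 0.5 CPM in these 8 libraries, with SE bars from edgeR. *R07C12.1*, at -1.46, is the only gene with an adjusted p under 0.05, and the other values run from -1.97 for *W09G12.8* to 1.02 for *ZC196.4*.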

How the data were processed

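RNA was taken from whole L4 animals of 4 genotypes, 4 libraries each, and sequenced in pairs of reads after a stranded mRNA preparation. The authors aligned reads to WS235 with Rsubread and deposited featureCounts counts, raw and not normalized, in 1 table of 46904 genes. The sources used here state neither the strand setting nor the handling of multiply aligned reads. The per-sample tables hold the same counts. Members and gene lists were chosen with earlier results of these data known.

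CPM used library totals (14028579 to 34151410 counts). Contrasts that the rule used are described without a test. Double mutants were compared to WT animals with edgeR 4.0.16 (R 4.3.3, TMM scaling, quasi-likelihood test, Benjamini-Hochberg adjustment, call at adjusted p under 0.05) on genes with at least 0.5 CPM in 4 of the 8 or of all 16 libraries. On simulated data (15292 genes, 200 with a mean count of at least 20 changed by a log2 fold of 2), this test recovered 91.5% with 8 false calls, and members with fewer counts were not covered. Alternatives were limma-voom (limma 3.58.1), DESeq2 1.42.0, other scalings, filters and thresholds, a replicate block, and leaving out each library. Where a group had no count, 3 counts over the group served as a floor, which covers counting error only.

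Named genes were the most abundant members, those with the largest folds, those with ratios nearest 1 or nearest the window's edges, genes next to each threshold, those called, those within 20 kb of another member, and those with an annotated role. *Y47G7B.2*, *C44B12.6*, *W03G1.8*, *T27F7.12*, *lido-5*, *srx-70*, *W09G12.8*, *trx-5*, *abu-2*, *pho-6*, *Y6E2A.4*, *C08H9.9* and the neighboring or overlapping nonmembers were named after their values were seen. Positions and biotypes came from the Ensembl annotation of WBcel235, which holds all 58 members, and roles from the WormCat categories and gene descriptions in the study's tables and from general knowledge. Over 13741 genes, deviations from the group means of same-numbered *pals-22(jy3)* and *pals-25(jy111)* libraries correlated at 0.902, 0.765, 0.538 and 0.718. Each library correlated best with its own number. The margin was small for replicate 4 of *pals-22(jy3)*, which correlated at 0.7085 with replicate 2 of *pals-25(jy111)*. Replicates of a group differed by more than sampling noise. Promoter and protein sequences were not analysed here.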

Additional observations from a re-analysis of the deposited data

Results flagged for a closer look

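Among 134 groups of 4 libraries with a mean of at least 1 CPM, 10 had 1 library far from the other 3, where chance gives about 1 in 20 groups. High libraries in *pals-22(jy3)* mutants were replicate 3 for *srx-70* (3.91 CPM), replicate 4 for *W03G1.8* (4.21 CPM), replicate 1 for *zig-13* (7.88 CPM), replicate 3 for *ZC239.2* (2.11 CPM) and replicate 1 for *pqn-90* (4.92 CPM). *Y50D4B.4* was high in replicate 1 of WT animals (19.03 CPM) and in replicate 1 of the double mutants (18.8 CPM). Low libraries were replicate 4 of *pals-25(jy111)* for *B0334.20* (0.361 CPM), replicate 2 of *pals-22(jy3)* for *T27F7.12* (1.72 CPM) and replicate 3 of *pals-25(jy111)* for *lido-5* (1.18 CPM).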

How the results depend on the processing

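The number of members fell from 58 to 28 with a minimum of 5 CPM and to 36 with a ratio window of 0.67 to 1.5, and ranged from 52 to 61 when each library was left out in turn. *W04G5.7* was lost 5 times and *vsra-1* 4 times, the latter without replicate 1 or 3 of either activated genotype. The minimum of 1 CPM was read on plain means, and 62 genes met the rule when 0.1 was added first, a reading tried after seeing the data. In double mutants compared to WT, the 1 member called by edgeR became 3 by limma-voom, 4 by DESeq2, 5 in one fit over all 16 libraries and 0 without a filter on low counts (*R07C12.1* adjusted p = 0.0528), and 0 to 2 when each library was left out. With genes kept over all 16 libraries these counts were 3, 4, 7 and 0 to 2, and the call was also lost without replicate 2 of WT (adjusted p = 0.0524 by edgeR). The shares of all genes called by each alternative are not given here, so nothing is read from the higher counts. The log2 value of *R07C12.1* stayed between -1.68 and -1.28. With the replicate number as a block, 1 member was called under either filter. Same-numbered WT and double mutant libraries had deviations that correlated at 0.285, 0.451, 0.327 and -0.195, and 3 of the 4 WT libraries correlated best with their own number. The 16 members whose activated libraries did not overlap became 18 with TMM or DESeq2 size factors and 16 to 21 when each library was left out. Shares of all genes under these settings are not given here either, so nothing is read from these changes. No called result changed direction. *K02E7.10*, which was not called, went from 0.35 to -0.05 on the log2 scale without replicate 4 of the double mutants. Leaving out 1 library, tried after seeing the data, moved the fold by over 1.5 times for 7 members. These were *T20D4.7* (156 to 327), *C08H9.9* (10.58 to 25.4), *abu-2* (6.37 to 19.2), *Y5H2A.4* (7.55 to 15.1), *abu-4* (4.54 to 11.8), *pqn-91* (2.15 to 14.04) and *pqn-90* (2.03 to 9.43). Counts of 3 or fewer reads limit the WT and double mutant values of many members.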
